A study of Mus musculus with 4 samples.

Results

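The data are the reads of 9 genes for receptors of natural killer (NK) cells in single bone marrow lymphoid progenitors, of 26421 genes listed over 2 experiments. The genes were taken by name, in cells grouped by gates on 5 other genes and by genotype. They are *Klrb1c*, *Klrb1b*, *Klrb1f*, *Klrd1*, *Klrk1*, *Klrg1*, *Klrc1*, *Klrc2* and *Ncr1*, and both tables of counts list each of them. The cells were αLPs, which were sorted from bone marrow as Lin-, CD127+, FLT3- and LPAM-1+, from WT and G3SEKO mice, for which the labels of experiment 1 give the strain C57BL/6. G3SEKO mice lack the tandem super-enhancers near *Gata3*, removed in zygotes with CRISPR-Cas9, and WT mice carry no such deletion. The study made more than 1 such line, and which was used here is not given in the sources used here. No treatment is named for either group, and the study as a whole used young adult mice of both sexes. Bone marrow of several mice per genotype was pooled, from more bones in experiment 2. Neither the labels nor the methods tie a hashtag to a mouse, so that all cells with 1 genotype and 1 experiment count here as a single sample. The hashtags A0307, A0308 and A0309 (WT) and A0310, A0311 and A0312 (G3SEKO) mark experiment 1, and A0302 (WT) and A0303 mark experiment 2. The label of experiment 2 lists A0303 under WT, and here it was taken as G3SEKO, so every G3SEKO value of experiment 2 rests on that assignment.

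The killer lectin-like receptors are C-type lectin-like proteins, most of them encoded in the NK gene complex. *Klrk1* encodes NKG2D, an activating receptor for stress-induced ligands. *Klrd1* encodes CD94, which pairs with the inhibitory NKG2A (*Klrc1*) or the activating NKG2C (*Klrc2*) to read the nonclassical class I molecule Qa-1. *Klrb1c* encodes the activating NK1.1, *Klrb1b* the inhibitory NKR-P1B and *Klrb1f* the activating NKR-P1F, and their known ligands belong to the Clec2 family. *Klrg1* encodes KLRG1, an inhibitory receptor for cadherins that also marks subsets of mature ILC2s, and *Ncr1* encodes the immunoglobulin-like natural cytotoxicity receptor NKp46 of NK cells, ILC1s and a subset of ILC3s. Activating members signal through the adaptors DAP12 (*Tyrobp*) and DAP10 (*Hcst*) or through Fc receptor chains such as the product of *Fcer1g*, and inhibitory members recruit phosphatases such as SHP-1 (*Ptpn6*).

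In GRCm38 (GENCODE annotation) 8 of the genes lie on chromosome 6 and 1 on chromosome 7. *Klrg1* (chr6:122270596-122282882, - strand) lies apart from a group that runs from *Klrb1c* (chr6:128778485-128789215, - strand) and *Klrb1b* (chr6:128813706-128826331, - strand) over *Klrb1f* (chr6:129045901-129057464, + strand) and *Klrd1* (chr6:129591782-129598775, + strand) to *Klrk1* (chr6:129610323-129623864, - strand), *Klrc2* (chr6:129647496-129660689, - strand) and *Klrc1* (chr6:129666015-129678973, - strand). *Ncr1* is at chr7:4337724-4345164 on the + strand. Transcripts of some members share sequence. Of the stretches of 50 bases in its transcripts, *Klrc1* shares 38.6% with other genes, mostly *Klrc2*, and *Klrc2* shares 16.3%. *Klrb1b* shares 27.2% and *Klrb1c* 17%, in both cases most with *Gm44511*. The split of reads within these pairs is therefore uncertain, while *Klrb1f*, *Klrd1*, *Klrk1*, *Klrg1* and *Ncr1* share no such stretch.

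The promoters are shown because the members fell into unlike patterns over the gates. RefSeq gives a promoter (250 bases before and 50 after a start, GRCm38.p6) for 7 of the 9 genes, and 5 are printed 5′ to 3′ in the direction of the gene. Capitals mark matches, on both strands, to 4 short words. They are a T-box word (GGTGTGA, in 3.98% of 32851 promoters), a GATA word (AGATAA, 11.2%), a RUNX word (TGTGGT, 16.8%) and an ETS word (AGGAAG, 35.4%), and none of these words overlapped another within the printed sequences. The positions are chr6:129623815-129624114 (- strand) for *Klrk1*, chr6:129678924-129679223 (- strand) for *Klrc1*, chr7:4337465-4337764 (+ strand) for *Ncr1*, chr6:128826266-128826565 (- strand) for *Klrb1b* and chr6:129045651-129045950 (+ strand) for *Klrb1f*.
Klrk1: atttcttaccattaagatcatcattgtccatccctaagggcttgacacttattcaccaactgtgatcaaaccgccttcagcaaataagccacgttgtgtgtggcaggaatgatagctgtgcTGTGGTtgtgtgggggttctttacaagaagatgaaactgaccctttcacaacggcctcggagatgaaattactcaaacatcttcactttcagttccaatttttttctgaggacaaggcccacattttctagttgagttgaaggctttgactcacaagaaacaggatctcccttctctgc
Klrc1: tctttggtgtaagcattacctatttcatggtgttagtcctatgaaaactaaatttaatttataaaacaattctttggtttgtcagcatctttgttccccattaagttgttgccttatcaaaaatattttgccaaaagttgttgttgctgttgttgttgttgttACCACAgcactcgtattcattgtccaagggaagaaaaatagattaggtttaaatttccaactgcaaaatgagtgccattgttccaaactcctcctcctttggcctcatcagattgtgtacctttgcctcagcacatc
Ncr1: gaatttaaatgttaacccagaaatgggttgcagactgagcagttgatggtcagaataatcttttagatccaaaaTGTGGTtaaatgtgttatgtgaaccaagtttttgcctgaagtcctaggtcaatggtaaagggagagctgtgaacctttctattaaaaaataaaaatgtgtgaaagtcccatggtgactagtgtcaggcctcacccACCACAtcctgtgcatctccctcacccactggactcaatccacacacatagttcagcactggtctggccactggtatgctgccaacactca
Klrb1b: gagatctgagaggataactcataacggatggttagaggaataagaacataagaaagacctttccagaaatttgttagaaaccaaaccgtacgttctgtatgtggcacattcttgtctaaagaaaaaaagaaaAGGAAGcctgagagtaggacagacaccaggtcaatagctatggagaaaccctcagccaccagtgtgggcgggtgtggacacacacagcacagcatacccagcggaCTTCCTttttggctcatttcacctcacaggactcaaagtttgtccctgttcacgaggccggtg
Klrb1f: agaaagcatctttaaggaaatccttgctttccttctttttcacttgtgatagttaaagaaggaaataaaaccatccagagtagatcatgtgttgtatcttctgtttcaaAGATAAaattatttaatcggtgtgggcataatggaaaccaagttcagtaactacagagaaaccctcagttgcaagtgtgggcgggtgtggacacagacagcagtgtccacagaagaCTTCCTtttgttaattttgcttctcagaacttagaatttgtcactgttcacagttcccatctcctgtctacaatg
The RUNX word was found in the promoters of *Klrk1* (129 bases before the start), *Klrc1* (87 bases before) and *Ncr1* (176 and 41 bases before), and also in those of *Klrb1c* and *Klrc2*, which are not printed. The promoters of *Klrb1b* and *Klrb1f* held no RUNX word. The ETS word was in both and also in that of *Klrb1c*, with 3 matches, and *Klrb1f* held the GATA word 141 bases before its start. No promoter of a member held the T-box word. *Klrb1b* and *Klrb1f* share a run of 22 bases, agtgtgggcgggtgtggacaca, which starts 58 bases before the start of *Klrb1b* and 68 bases before that of *Klrb1f*. A match is a description of letters and not a site of binding.

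After limits on reads, mitochondrial reads, hashtags and *Id2*, 681 WT and 43 G3SEKO cells of experiment 1 and 5130 WT and 1159 G3SEKO cells of experiment 2 remained. The median depth was 396198 and 509911 reads per cell in experiment 1, and 29677 and 42814 in experiment 2. A cell was past a gate, or had a receptor gene "at the level", when ln(1 + reads per 10000) was at least 1, which is 172 CPM (reads per 1e6 reads of the cell). Each cell was put into the first gate that it passed, in the order Cd3e+, Eomes+, Il1rl1+ (the gene of the ILC2 marker ST2), Zbtb16+ (PLZF, of ILC progenitors), Icos+ Zbtb16- and gate-negative. Of the WT cells of experiment 1, the Cd3e+ gate held 12, Eomes+ 17, Il1rl1+ 424, Zbtb16+ 87, Icos+ Zbtb16- 81 and the gate-negative remainder 60. The WT cells of experiment 2 numbered 7, 26, 3546, 217, 568 and 766 in the same order. The G3SEKO cells numbered 2, 5, 1, 17, 7 and 11 in experiment 1 and 12, 42, 50, 354, 338 and 363 in experiment 2. The Il1rl1+ and Cd3e+ sums of G3SEKO cells in experiment 1 held under 5 cells and were left out of every fit, so the fitted value of G3SEKO Il1rl1+ cells rests on experiment 2.

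The gates were checked against marker lists. With the genes of the gates left out, reads of 7 NK and ILC1 markers summed to 899 to 2877 CPM in Eomes+ cells and to 109 and 155 CPM in WT Il1rl1+ cells. Their defining cytotoxic genes were at or near 0 in Eomes+ cells, where *Prf1* reached at most 0.0747 CPM and *Gzma* 0.149 CPM, so the gates are called by their genes. Over all kept cells, 10 WT and 3 G3SEKO cells of experiment 1 were past both the Eomes and the Zbtb16 gate. In experiment 2 they were 13 and 18. All 5 ILCP markers tested were above 0 in WT Eomes+ against Il1rl1+ cells (edgeR), with a median of 3.81 (log2), beside -0.34 for all genes. Cd3e+ cells held 3884 to 9797 CPM of T lineage markers and also 1199 to 8576 CPM of NK and ILC1 markers, against 1682 to 2851 CPM of T lineage markers in Eomes+ cells, and 8 of the 12 WT Cd3e+ cells of experiment 1 were also past the Eomes gate. The sort removed cells stained for CD3e and NK1.1, so cells with these proteins on the surface were selected against, and *Klrb1c* and *Cd3e* reads come from cells that passed that sort. The gate-negative G3SEKO cells of experiment 1 held 58174 CPM of myeloid markers, against at most 33.3 CPM in every other sum. The experiments shared 11 barcode numbers, 5 of them among kept cells. *Gata3*, the gene next to the deletion, was at 1387 and 1039 CPM in WT Il1rl1+ cells, at 294 CPM in the 50 G3SEKO Il1rl1+ cells of experiment 2 and at 631 CPM in the single cell of experiment 1.

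**Figure D1:**
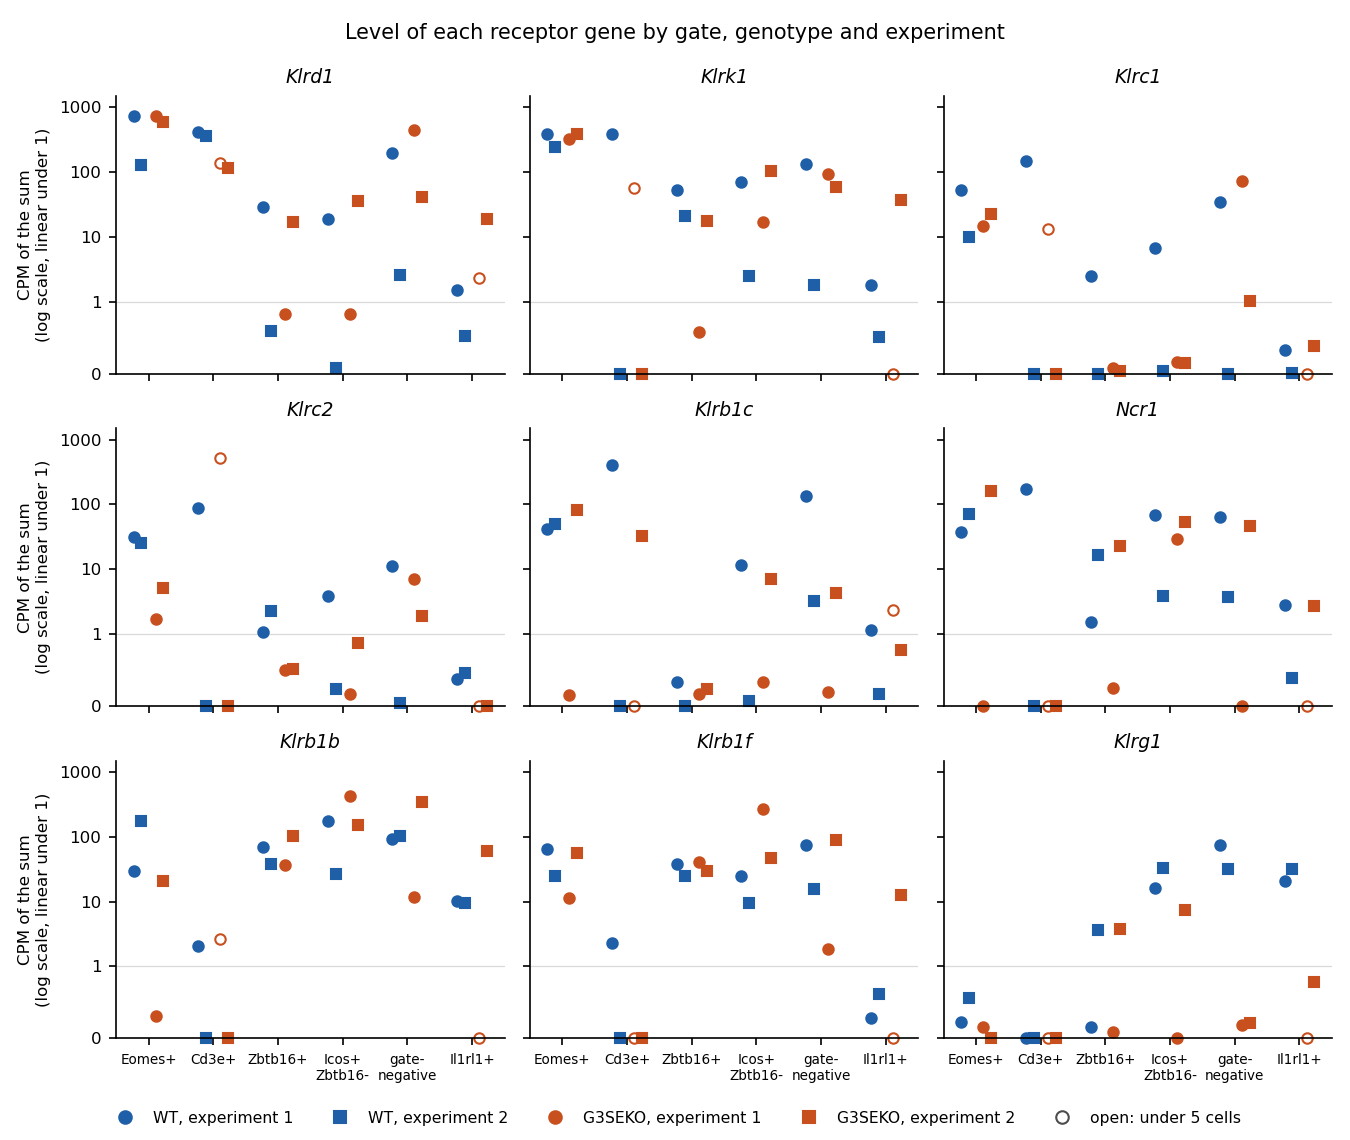
Level of each receptor gene (CPM of the summed reads, log scale above 1 and linear below) in 6 gates, for WT (blue) and G3SEKO (orange) cells of experiment 1 (circles) and experiment 2 (squares); open symbols are sums of under 5 cells. *Klrd1* and *Klrk1* stand between 131 and 738 CPM in Eomes+ cells of all samples and at most at 1.82 CPM in WT Il1rl1+ cells, while *Klrg1* has the opposite order.

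The first question was where the genes are expressed along WT development, with Il1rl1+ cells as the reference. The mean WT levels of *Klrd1*, *Klrk1*, *Klrc1* and *Klrc2* were highest in the Eomes+ and Cd3e+ gates, where all Cd3e+ reads of the last 3 came from experiment 1. *Klrd1*, the CD94 chain, was at 738 CPM (10 of 17 cells at the level) in WT Eomes+ cells of experiment 1 and at 131 CPM (7 of 26) in experiment 2. Its WT Il1rl1+ values were 1.53 CPM (0 of 424 cells, which allows a share of up to 0.708%) and 0.52 CPM (3 of 3546). The Eomes+ values were above the Il1rl1+ values in both experiments. The hashtags of experiment 1 gave *Klrd1* values of 616, 1106 and 667 CPM in 8, 4 and 5 Eomes+ cells.

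*Klrk1*, the NKG2D gene, was at 393 CPM (5 of 17 cells) and 247 CPM (6 of 26) in WT Eomes+ cells. In WT Il1rl1+ cells it was at 1.82 CPM (1 of 424) and 0.507 CPM (2 of 3546). *Klrk1* was also found at lower levels before *Il1rl1*, at 53.8 and 21.2 CPM in Zbtb16+ cells and at 71.5 and 2.51 CPM in Icos+ Zbtb16- cells. Those reads came from few cells, and in experiment 1 a single cell held 58.8% of the *Klrk1* reads of the Zbtb16+ gate. The Eomes+ gate was the higher of the pair against each of these 2 gates in both experiments.

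The NKG2 partners of CD94 were rarer. *Klrc1* (NKG2A) was at 52.1 CPM (2 of 17 cells) and 10.04 CPM (1 of 26) in WT Eomes+ cells, against 0.32 and 0.0135 CPM in Il1rl1+ cells. *Klrc2* (NKG2C) was at 31 CPM (2 of 17) and 25.7 CPM (2 of 26), against 0.377 and 0.453 CPM. Both genes were higher in the Eomes+ than in the Il1rl1+ gate in both experiments, and their reads cannot be fully told apart.

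*Klrb1c*, the NK1.1 gene, was at 42.2 CPM (1 of 17 cells) and 50.8 CPM (1 of 26) in WT Eomes+ cells. In Zbtb16+ cells of either genotype it did not exceed 0.332 CPM, and 0 of 87 and 0 of 217 WT cells were at the level, which allows shares of up to 3.45% and 1.38%. The WT gate-negative cells were above the Eomes+ cells in experiment 1, with 135 CPM (5 of 60), and below them in experiment 2, with 3.23 CPM (2 of 766). NK1.1 was in the depletion stain, so these values describe the cells left after it. *Ncr1* (NKp46) was at 38.2 CPM (3 of 17) and 72.5 CPM (2 of 26) in WT Eomes+ cells and at 2.82 and 0.392 CPM in Il1rl1+ cells. The Icos+ Zbtb16- cells had 69.4 CPM (4 of 81) and 3.91 CPM (3 of 568) of *Ncr1*, and the gate-negative cells 64.4 CPM (3 of 60) and 3.76 CPM (3 of 766), so that both gates were above the Eomes+ cells in the first experiment and below them in the second. Zbtb16+ cells had 1.51 CPM (0 of 87) and 16.8 CPM (4 of 217).

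*Klrb1b* and *Klrb1f* had cells at the level in the precursor gates (Zbtb16+ and Icos+ Zbtb16-) as well as in Eomes+ and gate-negative cells. Cells at the level in the precursor gates were not particular to this pair, since *Klrk1* and *Ncr1* had some too. WT Eomes+ cells had 29.6 and 176 CPM of *Klrb1b* and 64.7 and 24.5 CPM of *Klrb1f*. WT gate-negative cells had 93.9 and 104 CPM of *Klrb1b* and 74.4 and 15.5 CPM of *Klrb1f*. The highest WT mean of each gene lay outside the precursor gates, but not above both of them in each experiment. *Klrb1b* (NKR-P1B) was at 68.7 CPM (12 of 87 cells) and 38.1 CPM (14 of 217) in WT Zbtb16+ cells, and at 175 CPM (9 of 81) and 26.8 CPM (17 of 568) in Icos+ Zbtb16- cells. Its Il1rl1+ values were close to each other, 10.04 CPM (4 of 424) and 9.47 CPM (38 of 3546), and lay below those of both precursor gates in both experiments. *Klrb1f* (NKR-P1F) was at 38.1 CPM (9 of 87) and 25.1 CPM (10 of 217) in WT Zbtb16+ cells, at 25.2 and 9.63 CPM in Icos+ Zbtb16- cells, and at 0.278 CPM (0 of 424) and 0.621 CPM (3 of 3546) in Il1rl1+ cells. Both precursor gates were above the Il1rl1+ gate for *Klrb1f* in both experiments. In the Cd3e+ gate *Klrb1b* was at 2.07 and 0 CPM and *Klrb1f* at 2.28 and 0 CPM, so neither followed *Klrd1* there.

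*Klrg1* had the reverse order. It was at 20.8 CPM (16 of 424 cells, 3.77%) and 31.4 CPM (139 of 3546, 3.92%) in WT Il1rl1+ cells, and at 22.9, 21.4 and 17.8 CPM in the hashtags of experiment 1. In WT Eomes+ cells it was at 0.224 and 0.558 CPM, in Cd3e+ cells at 0 in both experiments and in Zbtb16+ cells at 0.158 CPM (0 of 87) and 3.69 CPM (1 of 217). Icos+ Zbtb16- cells were at 16 CPM (1 of 81) and 33.1 CPM (17 of 568), and the gate-negative cells were at 73.7 CPM (4 of 60) and 32.1 CPM (28 of 766). Against a floor of 3 reads per sum, *Klrg1* of Cd3e+ cells was at least 33.5-fold below Il1rl1+ cells in experiment 1. In experiment 2 it was at least 2.83-fold below. These bounds treat reads as independent, while the gene was at the level in only 3.77% and 3.92% of Il1rl1+ cells. With 12 and 7 Cd3e+ cells, a lower share of *Klrg1* cells was not detectable.

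The order of the mean WT levels was read for neighbouring gates, and a step is said to hold where the first gate was above the next within each experiment. *Klrk1* was in the order Eomes+, Cd3e+, gate-negative, Zbtb16+, Icos+ Zbtb16- and Il1rl1+, and of these 5 steps only the last held. For *Klrd1* the steps from Cd3e+ over gate-negative and Zbtb16+ to Icos+ Zbtb16- cells held, and for *Klrb1f* those from Zbtb16+ over Icos+ Zbtb16- to Cd3e+ cells. For *Klrb1b* the steps from gate-negative over Zbtb16+ and Il1rl1+ to Cd3e+ cells all held. The last step of *Klrb1b*, and that of *Klrb1f* from Icos+ Zbtb16- to Cd3e+ cells, cannot be read in experiment 2. The Cd3e+ sum had 0 reads of both genes there, and its floor of 11.1 CPM was above the value of the gate before. For *Klrg1* the steps from gate-negative to Il1rl1+ and from Icos+ Zbtb16- to Zbtb16+ cells held, and that from Eomes+ to Cd3e+ cells rests on 3 and 1 reads against 0. The other neighbouring steps of these 5 genes did not hold. Of the steps that held, those of *Klrd1* from gate-negative cells onwards and that of *Klrb1f* from Zbtb16+ to Icos+ Zbtb16- cells overlapped once the values of both experiments were set side by side.

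**Figure D2:**
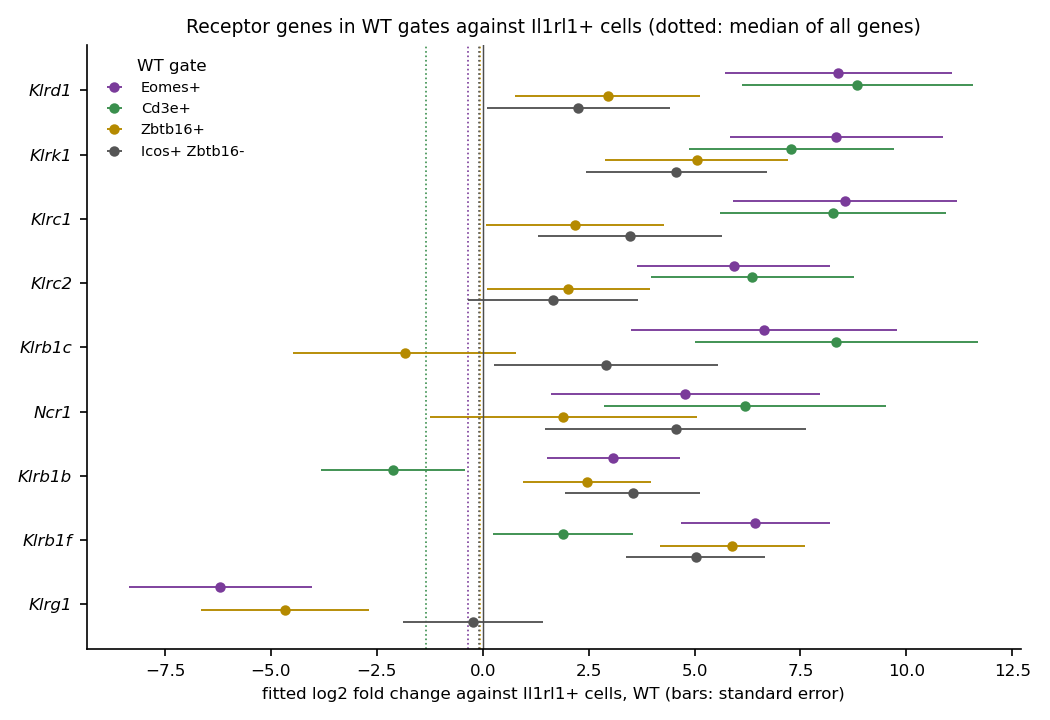
Fitted log2 fold change of each receptor gene in 4 WT gates against WT Il1rl1+ cells (points, edgeR), with its standard error (bars); dotted lines mark the median of all 20850 genes for each contrast, and the Cd3e+ value of *Klrg1*, with no reads in that gate, is left out. In Eomes+ cells 8 genes lie above 0 and *Klrg1* below, and in Zbtb16+ cells 7 lie above 0.

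These differences were tested across 20850 genes with edgeR's quasi-likelihood test on 22 sums of reads with the experiment as a block (9 residual degrees of freedom). In WT Eomes+ against Il1rl1+ cells, 0 of the 9 members passed an adjusted p of 0.05, beside 0.024% of all genes called higher and 0.0144% called lower. By unadjusted p under 0.05, 6 of 9 members passed, 5 higher and 1 lower, against 8.4% of all genes. The median fitted log2 fold change of the members was 6.43, with 8 above 0, and that of all genes was -0.34. For *Klrk1* the fold change was 8.34 ± 2.51 (log2, SE), with an adjusted p of 0.527 by edgeR's quasi-likelihood test, and for *Klrd1* it was 8.40 ± 2.68, with an adjusted p of 0.553. DESeq2 called 6 of 9 members, *Klrb1f*, *Klrd1*, *Klrk1*, *Klrc1* and *Klrc2* higher and *Klrg1* lower, beside 2.6% of all genes in either direction. With only the 4 sums of the gates compared in the fit, which leaves few degrees of freedom to judge the spread, edgeR called all 9, 8 higher and *Klrg1* lower (2.34% of all genes). With every cell thinned to the lowest read number kept in experiment 2 it called 6 (2.01% of 11842 genes tested). Thinned cells were gated again on their thinned reads, so a gate can hold other cells than in the main fit. On simulated counts for this contrast (20186 genes), the test recovered 0 of 100 genes changed 4-fold and 36 of 100 changed 64-fold.

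In WT Zbtb16+ against Il1rl1+ cells, edgeR's quasi-likelihood test also called 0 of 9 members, beside 0.0192% of all genes higher and 0.0048% lower. Of the members, 3 passed an unadjusted p under 0.05, against 5.15% of all genes. They were *Klrb1f* (log2 fold change 5.89 ± 1.71, SE, adjusted p 0.711) and *Klrk1* (5.05 ± 2.16, adjusted p 0.935), higher, and *Klrg1* (-4.67 ± 1.98, adjusted p 0.931), lower. The members' median was 2.18, with 7 above 0, beside -0.07 for all genes. DESeq2 called *Klrb1f* (beside 1.07% of all genes), and edgeR called *Klrb1f* and *Klrk1* with thinned cells (2.25%) and with only the sums compared (2.15%). For Icos+ Zbtb16- against Il1rl1+ cells, a contrast added after seeing the data, edgeR called 0 of 9 members and 0% of all genes in either direction. *Klrb1f* (log2 fold change 5.02 ± 1.65, SE) and *Klrb1b* (3.54 ± 1.59) passed an unadjusted p under 0.05 there, as did 2.29% of all genes. DESeq2 called 0 of 9 members in that contrast (0.0959% of all genes), and edgeR called *Klrb1f* and *Klrk1* with thinned cells (0.177%).

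In WT Cd3e+ against Il1rl1+ cells, edgeR called 0 of 9 members, beside 0.144% of all genes higher and 2% lower. *Klrd1* was at 423 CPM (7 of 12 cells) and 366 CPM (4 of 7), and its fold change was 8.84 ± 2.73 (log2, SE), with an adjusted p of 0.119 by edgeR's quasi-likelihood test. *Klrk1*, *Klrb1c*, *Klrc1*, *Klrc2* and *Ncr1* were at 393, 409, 148, 87.5 and 175 CPM in the Cd3e+ cells of experiment 1. In the 7 Cd3e+ cells of experiment 2 all these 5 genes were at 0 reads. With only the compared sums of experiment 1 left out of the fit, the fold change of *Klrb1c* was -5.01 and that of *Klrk1* -6.57. Those of *Klrc1* and *Klrc2* were -1.81 and -6.41. These signs follow from 0 reads in the Cd3e+ sum of experiment 2, whose floor of 11.1 CPM lies above the Il1rl1+ values. That experiment therefore cannot show a direction for these genes, while *Klrd1* kept its direction without the sums of either experiment. Of the members, 6 passed an unadjusted p under 0.05, against 16.9% of all genes, and the members' median was 6.37 beside -1.35 for all genes. DESeq2 called 6 of 9 there, *Klrg1* lower and *Klrb1c*, *Klrd1*, *Klrk1*, *Klrc1* and *Klrc2* higher, beside 13.3% of all genes called by DESeq2 in either direction. EdgeR called 6 members with thinned cells (3.77% of all genes) and 1 with only the sums compared (0.262%).

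Other genes of the receptor pathways were followed with lists. In WT Eomes+ against Il1rl1+ cells edgeR called 0 of 15 adaptor and signalling genes, 0 of 3 phosphatases, 0 of 13 ligands, 0 of 21 other NK receptors and 0 of 18 regulators and effectors tested, and by unadjusted p under 0.05 the numbers were 7, 0, 4, 8 and 8, beside 8.4% of all genes. Their medians were 0.70, 0.54, -0.54, 4.83 and 1.97 (log2), beside -0.34 for all genes. *Tyrobp*, the DAP12 adaptor, was at 1149 and 628 CPM in WT Eomes+ cells, at 486 and 448 CPM in Zbtb16+ cells and at 7.89 and 3.51 CPM in Il1rl1+ cells. *Hcst*, the DAP10 adaptor of NKG2D, was at 25.4 and 32.4 CPM in Eomes+ cells and at 153 and 74.8 CPM in Il1rl1+ cells, the other way round. In Zbtb16+ against Il1rl1+ cells the lists also gave 0 calls, with 5, 1, 4, 4 and 5 genes at an unadjusted p under 0.05, beside 5.15% of all genes.

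In WT Cd3e+ against Il1rl1+ cells, edgeR called 5 genes of these lists, 1 of 15 adaptor and signalling genes, 1 of 13 ligands and 3 of 18 regulators and effectors, beside 0.144% of all genes higher and 2% lower. *Lck*, a kinase of T cells and NK cells, was higher by 4.36 ± 0.49 (log2, SE; adjusted p 0.00104 by edgeR's quasi-likelihood test). *Nkg7*, of cytotoxic granules, was higher by 6.36 ± 1.22 (adjusted p 0.0158, edgeR) and *Ctsw*, the gene of cathepsin W, by 5.23 ± 1.13 (adjusted p 0.0288, edgeR). *Clec2d*, the gene of a ligand of NKR-P1B, was higher by 1.20 ± 0.28 (adjusted p 0.0449, edgeR). *Id2* was lower, at -1.40 ± 0.16 (adjusted p 0.00104, edgeR), and it had also been used to choose the cells. Of the marker lists, edgeR called 3 of 10 T lineage markers higher (*Cd3d*, *Trbc1* and *Cd5*), 3 of 6 ILC2 markers lower (*Gata3*, *Il17rb* and *Rora*), and of 5 ILCP markers 2 higher (*Tcf7* and *Il18r1*) and 1 lower (*Tox*), while *Nkg7* was the 1 of 6 NK and ILC1 markers. In the Eomes+ and Zbtb16+ contrasts the marker lists held calls of edgeR as well. *Trbc1*, a T cell receptor constant gene, was higher by 2.46 ± 0.29 in Eomes+ and by 3.12 ± 0.30 in Zbtb16+ cells (log2, SE; adjusted p 0.00665 and 0.00129, edgeR). *Tcf7*, the gene of the transcription factor TCF-1, was higher by 4.70 ± 0.62 and 4.93 ± 0.63 (adjusted p 0.0129 and 0.00846, edgeR). *Bcl11b*, of the ILC2 list, was lower in Eomes+ cells, at -4.42 ± 0.51 (adjusted p 0.00665, edgeR).

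**Figure D3:**
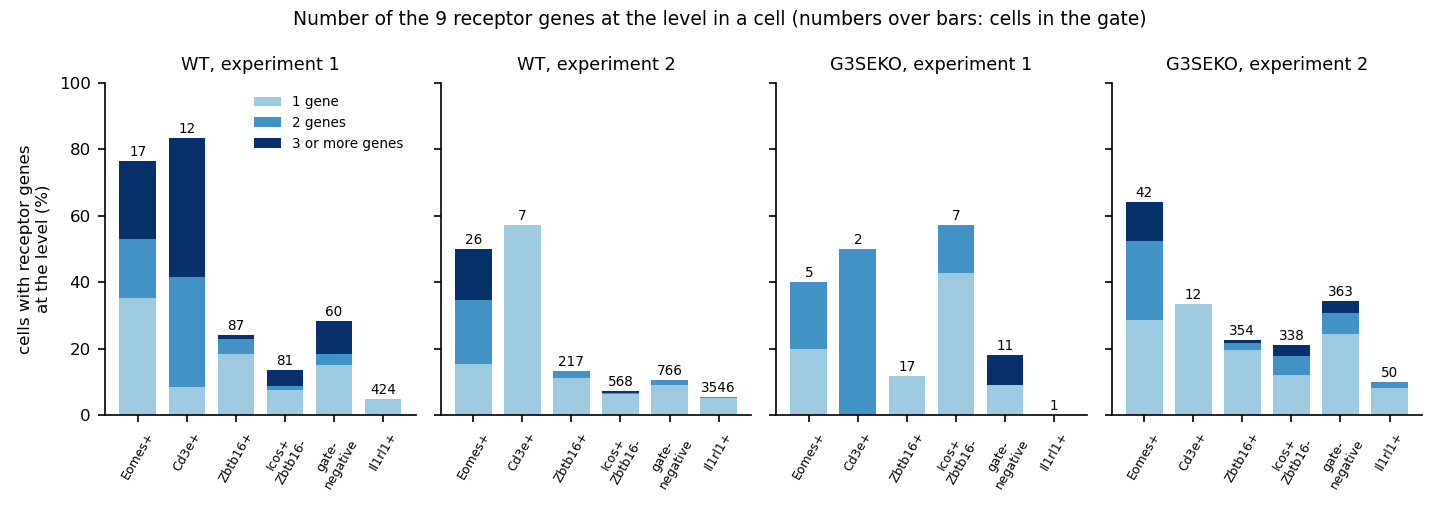
Share of cells (%) with 1, 2 or at least 3 of the 9 receptor genes at the level, by gate, for each genotype and experiment; the number over a bar is the number of cells in the gate. The bars of Eomes+ cells are at 76.5% and 50% in WT and those of Il1rl1+ cells at 4.95% and 5.27%.

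The genes were then compared within single cells. At least 1 member was at the level in 13 of 17 WT Eomes+ cells of experiment 1 and in 13 of 26 of experiment 2, and in 21 of 424 and 187 of 3546 Il1rl1+ cells. At least 3 members were at the level in 4 of 17 and 4 of 26 Eomes+ cells, and in 1 of 424 and 0 of 3546 Il1rl1+ cells. *Klrd1* and *Klrk1* shared cells. In WT cells of experiment 1, 14 of 26 cells with *Klrd1* at the level also had *Klrk1*, against 12 of 655 other cells. In experiment 2 the counts were 3 of 17 against 14 of 5113 WT cells and 17 of 47 against 35 of 1112 G3SEKO cells. *Tyrobp* was at the level in 21 of 26, 5 of 17 and 32 of 47 of these *Klrd1* cells, against 74 of 655, 145 of 5113 and 246 of 1112 others.

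*Klrk1* and *Ncr1* shared cells too, with *Ncr1* in 9 of 26 WT *Klrk1* cells of experiment 1 (4 of 655 others) and in 19 of 52 G3SEKO *Klrk1* cells of experiment 2 (30 of 1107 others). *Klrb1b* went with *Klrb1f* and with *Ccr6*, the gene of a chemokine receptor of LTi cells. Of *Klrb1b* cells in experiment 2, 25 of 116 WT and 65 of 189 G3SEKO cells had *Ccr6* at the level, against 14 of 5014 and 44 of 970 others, and *Klrb1f* was at the level in 12 of 116 and 37 of 189, against 26 of 5014 and 53 of 970. In experiment 1, which held few *Ccr6* cells, *Ccr6* was in 1 of 32 WT *Klrb1b* cells and 1 of 649 others.

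*Klrg1* was seldom in the same cells as another member, most of which are rare in the other cells too. Of 21 WT *Klrg1* cells in experiment 1, 0 had any other member at the level, and of 185 in experiment 2, 1 had *Klrb1b* and 1 had *Klrb1f*. Among the cells without *Klrg1* at the level, *Klrb1b* was in 32 of 660 and 115 of 4945, *Klrb1f* in 17 and 37, and *Klrd1* in 26 and 17, so that few shared cells could be seen in any case. *Gata3* was at the level in all 21 and in 145 of 185 of the *Klrg1* cells, against 576 of 660 and 3643 of 4945 others, and *Tyrobp* in 0 and 3, against 95 and 147. Within Zbtb16+ cells, *Ncr1* of experiment 2 was mostly in cells with *Icos* at the level, at 29.6 CPM against 1.62 CPM below it in WT and 39.6 CPM against 6.88 CPM in G3SEKO cells. In experiment 1 the WT values were low and in the other order, 0.267 CPM at the level and 2.1 CPM below it. *Klrk1* of WT cells in experiment 1 had 15.3 CPM (1 of 29 cells) where *Icos* was at the level and 72.2 CPM (3 of 58) where it was below. In experiment 2 the values were 5.03 CPM (1 of 97) and 40.4 CPM (3 of 120), so this order rests on few cells. G3SEKO cells of experiment 2 had 10.1 CPM (5 of 159) and 24.6 CPM (3 of 195), and those of experiment 1 had 0.821 and 0.211 CPM. These counts describe cells of pooled samples, and no test was made on them.

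Few reads per cell have to be read with care. In the deep experiment 1, 132 of 424 WT Il1rl1+ cells (31.1%) held at least 1 *Klrd1* read and none was at the level, while after thinning 2 cells (0.472%) held one. In the shallow experiment 2 the share was 0.62%, and 0.113% after thinning. These shares serve as the reference for single reads, whose source was not tested, and shares at the level are used in the text instead. Reads of 1 molecule were counted separately, so intervals and floors cover counting error only.

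**Figure D4:**
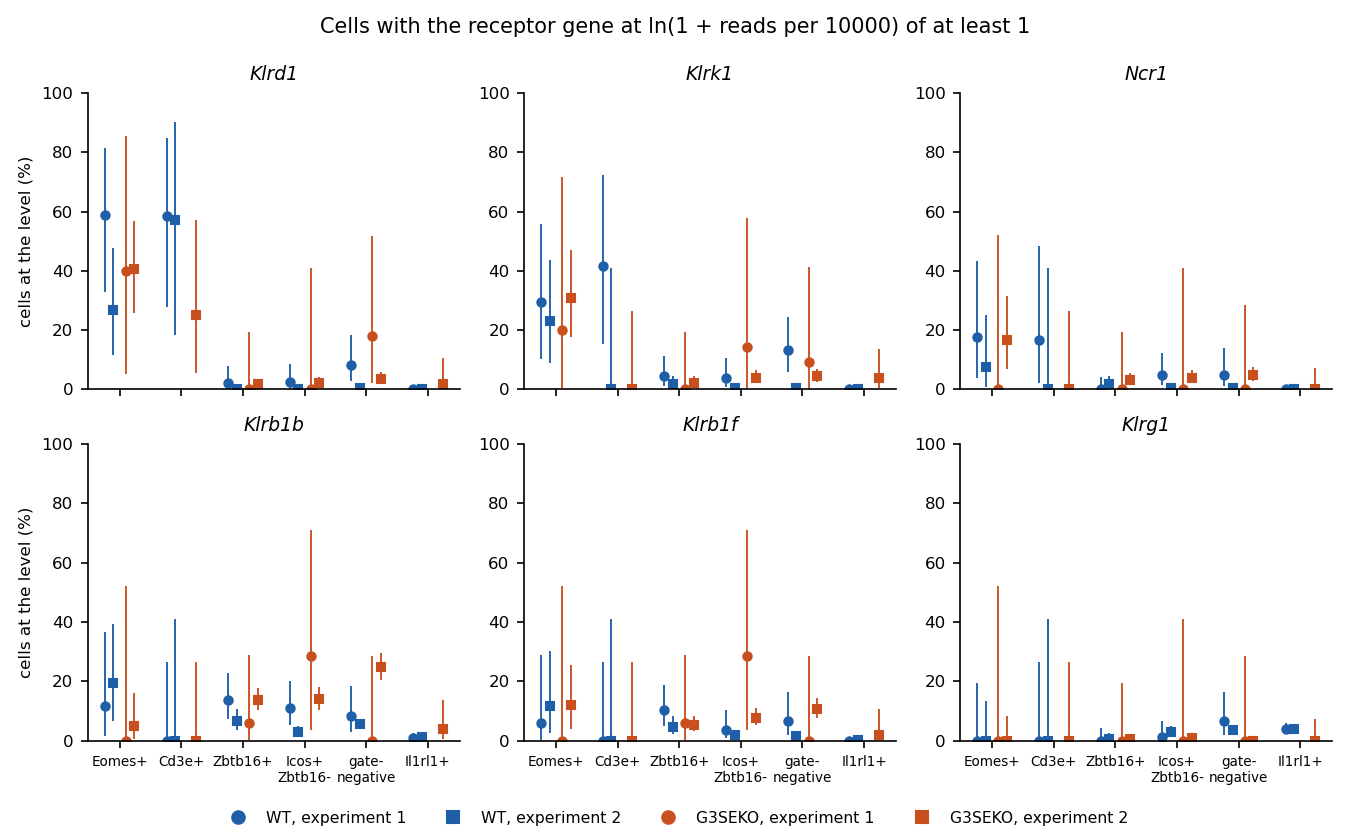
Share of cells (%) with a receptor gene at ln(1 + reads per 10000) of at least 1, by gate, for 6 genes; points are WT (blue) and G3SEKO (orange) cells of experiment 1 (circles) and experiment 2 (squares), bars are exact 95% binomial intervals, and sums of under 5 cells are left out. *Klrd1* reaches 58.8% and 26.9% in WT Eomes+ cells, and *Klrb1b* reaches 24.8% in gate-negative G3SEKO cells of experiment 2.

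The second question was how loss of the super-enhancers bears on these genes. Over all kept cells, at least 1 member was at the level in 13.7% of WT cells (exact 95% binomial interval, 11.2 to 16.5%) and 25.6% of G3SEKO cells (13.5 to 41.2%) in experiment 1, and in 6.92% (6.24 to 7.65%) and 26.9% (24.4 to 29.6%) in experiment 2. The mix of gates differed as well, since Il1rl1+ cells were 62.3% and 69.1% of WT but 2.33% and 4.31% of G3SEKO cells. Within gates of experiment 2 the WT and G3SEKO shares were 50% and 64.3% in Eomes+, 13.4% and 22.6% in Zbtb16+, 7.22% and 21% in Icos+ Zbtb16-, 10.6% and 34.4% in gate-negative and 5.27% and 10% in Il1rl1+ cells, while Cd3e+ cells had the other order, with 57.1% of 7 and 33.3% of 12 cells. In experiment 1 the WT share was the higher one in 5 of 6 gates, with 76.5% and 40% in Eomes+, 24.1% and 11.8% in Zbtb16+ and 28.3% and 18.2% in gate-negative cells, 83.3% and 50% in Cd3e+ cells and 4.95% and 0% in Il1rl1+ cells. In Icos+ Zbtb16- cells it was 13.6% of 81 WT and 57.1% of 7 G3SEKO cells. The G3SEKO gates of experiment 1 held 1 to 17 cells. The G3SEKO cells of experiment 2 were also the deeper ones, with 33370 reads in the median gate-negative cell against 21784 in WT, and the part of depth in these shares was not tested.

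*Klrb1b* had the most G3SEKO cells at the level of the 9 genes in experiment 2, 189 of 1159 (16.3%), against 116 of 5130 WT cells (2.26%). Icos+ Zbtb16- cells of experiment 1 had 175 CPM in WT (9 of 81 cells) and 423 CPM in G3SEKO (2 of 7), and those of experiment 2 had 26.8 CPM (17 of 568) and 154 CPM (47 of 338). The G3SEKO value was the higher one within each experiment, but the WT value of experiment 1 was above the G3SEKO value of experiment 2. Gate-negative cells of experiment 1 had 93.9 CPM in WT (5 of 60) and 11.9 CPM in G3SEKO (0 of 11), and those of experiment 2 had 104 CPM (42 of 766) and 340 CPM (90 of 363), so the orders were opposite. The 11 G3SEKO cells of experiment 1 carry the myeloid reads named above, and their part in this was not tested. *Ccr6* moved alongside, from 87.9 to 326 CPM in gate-negative cells of experiment 2.

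In Eomes+ cells *Klrb1b* had the reverse order. Experiment 1 gave 29.6 CPM for WT (2 of 17 cells) and 0.307 CPM for G3SEKO (0 of 5), and experiment 2 gave 176 CPM (5 of 26) and 21 CPM (2 of 42). By edgeR's quasi-likelihood test the fold change of *Klrb1b* was -3.31 ± 1.59 (log2, SE; adjusted p 0.65) in Eomes+ and 1.53 ± 1.46 (adjusted p 1) in Icos+ Zbtb16- cells. With hashtags as the unit the Icos+ Zbtb16- value was -0.64 (log2, edgeR), so its sign was not settled. Zbtb16+ cells had opposite orders, 68.7 CPM (WT) and 36.3 CPM (G3SEKO) in the first and 38.1 and 102 CPM in the second experiment.

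In Icos+ Zbtb16- cells, *Klrb1f* reached 25.2 CPM (WT, 3 of 81 cells) and 265 CPM (G3SEKO, 2 of 7) in the first experiment, and 9.63 CPM (10 of 568) and 47.6 CPM (26 of 338) in the second. The G3SEKO value was the higher one in both experiments, and 1 cell held 89.2% of the G3SEKO reads of experiment 1. The fold change was 3.17 ± 1.5 (log2, SE; adjusted p 1 by edgeR's quasi-likelihood test). In Zbtb16+ cells the WT and G3SEKO values of *Klrb1f* were 38.1 and 41.5 CPM, then 25.1 and 29.3 CPM, with a fold change of 0.19 ± 1.38 (log2, SE), an error that leaves room for changes of more than 2-fold in both directions.

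*Klrd1* and *Klrk1* were found in Eomes+ cells of both genotypes. For *Klrd1* the first experiment gave 738 CPM (WT) and 734 CPM (G3SEKO, 2 of 5 cells at the level), and the second gave 131 CPM (7 of 26) and 588 CPM (17 of 42). For *Klrk1* the values were 393 CPM and 320 CPM (1 of 5 cells, with nearly all reads in that cell) in the first, and 247 CPM (6 of 26) and 390 CPM (13 of 42) in the second. The genotypes overlapped for both genes. The G3SEKO against WT fold change in Eomes+ cells, a contrast added after seeing the data, was 1.39 ± 2.02 for *Klrd1* and 0.44 ± 1.83 for *Klrk1* (log2, SE, edgeR), so neither sign was settled. Outside this gate, *Klrk1* of Icos+ Zbtb16- cells went from 71.5 CPM in WT (3 of 81) to 17.2 CPM in G3SEKO (1 of 7) in the first and from 2.51 CPM (2 of 568) to 105 CPM (13 of 338) in the second experiment, so the orders were opposite. Gate-negative cells gave 135 CPM (8 of 60) and 92.1 CPM (1 of 11), then 1.78 CPM (3 of 766) and 59.3 CPM (16 of 363), again in opposite orders. Of all *Klrk1* reads of G3SEKO cells in experiment 2, Icos+ Zbtb16- cells held 45.5% and Eomes+ cells 25.4%. For *Klrd1* the Icos+ Zbtb16- values were 18.9 CPM (2 of 81) and 0.834 CPM (0 of 7), then 0.0774 CPM (0 of 568) and 36.4 CPM (7 of 338), with opposite orders as well. *Ncr1* of Eomes+ cells had 38.2 CPM in WT and no read in G3SEKO in the first, and 72.5 and 162 CPM in the second experiment.

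In Il1rl1+ cells the G3SEKO values rest on 50 cells of experiment 2. *Klrk1* reached 36.7 CPM there (2 of 50 cells), beside 1.82 and 0.507 CPM in the WT samples, and 1 cell held 77.7% of those reads. *Klrd1* reached 19.1 CPM (1 of 50), beside 1.53 and 0.52 CPM in WT. These G3SEKO cells also held 302.6 CPM of *Zbtb16* and 179 CPM of *Tyrobp*, against 45.5 and 30.6 CPM of *Zbtb16* and 7.89 and 3.51 CPM of *Tyrobp* in WT, and 2262 CPM of ILCP markers without *Zbtb16*, against 274 and 174 CPM. Of the T lineage markers edgeR called 1 of 10, *Trbc1*, higher by 2.50 ± 0.33 (log2, SE; adjusted p 0.0356, edgeR), and the median of the list was 1.51, beside -0.66 for all genes, with 6 of 10 above 0. Without the genes of the gates these markers summed to 2373 CPM, against 920 and 845 CPM in WT. The part of all these markers in the receptor values was not tested.

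*Klrg1* had a smaller share of cells at the level in G3SEKO than in WT samples. It was at the level in 21 of 681 WT and 0 of 43 G3SEKO cells of experiment 1 (a limit of 6.98%), and in 185 of 5130 (3.61%) and 5 of 1159 (0.431%) of experiment 2. In experiment 1 the same 43 cells also had 0 cells with *Klrb1c* or *Ncr1* at the level, against 14 and 13 of 681 WT cells. Over all kept cells its WT levels were 18.5 and 29.6 CPM, and its G3SEKO levels 0.0966 and 3.86 CPM. The G3SEKO value was below the WT value in both experiments, and no test was made over all gates. Il1rl1+ cells were 62.3% and 69.1% of WT but 2.33% and 4.31% of G3SEKO cells, and the part of this mix was not tested. Within the Il1rl1+ gate the level was 0.78 CPM in G3SEKO cells, beside 20.8 and 31.4 CPM in WT, with 0 of 50 cells at the level, which allows up to 6%. The WT shares of 3.77% and 3.92% lie within that limit, so a difference in the share of *Klrg1* cells was not detectable in this gate.

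Among gate-negative cells the WT samples had 73.7 CPM (4 of 60 cells) and 32.1 CPM (28 of 766) of *Klrg1*. The G3SEKO samples had 0.189 CPM (0 of 11) and 0.209 CPM (0 of 363, a limit of 0.826%), from 1 and 3 reads. In Icos+ Zbtb16- cells the WT samples had 16 CPM (1 of 81) and 33.1 CPM (17 of 568), and the G3SEKO samples had no read (0 of 7) and 7.55 CPM (3 of 338). The adjusted p of *Klrg1* was 1 by edgeR's quasi-likelihood test in both gates, and in gate-negative cells DESeq2 gave 0.00164 and edgeR on thinned cells 0.0143 (with 0.287% of all genes called), while the other alternatives gave 0.122 to 1. Of 6 ILC2 markers tested in gate-negative cells, 5 lay below 0 and 2 passed an unadjusted p under 0.05 (*Gata3* and *Areg*, both lower), with a median of -1.31 (log2), beside -0.19 for all genes. Without the genes of the gates they summed to 2600 and 2616 CPM in WT and to 1126 and 2152 CPM in G3SEKO samples. Of 10 T lineage markers, 9 lay above 0, with a median of 1.80 (log2). By edgeR 3 of them passed an unadjusted p under 0.05 (*Trbc1*, *Cd8a* and *Cd5*, all higher). The part of either list in the *Klrg1* values was not tested. The 11 G3SEKO cells of experiment 1 hold the myeloid reads. Without the gate-negative sums of that experiment the fold change of *Klrg1* was -7.35 (log2, edgeR), in the same direction.

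Across the members, edgeR's quasi-likelihood test of G3SEKO against WT called 0 of 9 in every gate tested. The G3SEKO Il1rl1+ group is 1 sum, so its spread is taken from the other groups. In Il1rl1+ cells the background was 0.00959% of genes called higher and 0% lower, and in Zbtb16+, Icos+ Zbtb16-, Eomes+ and gate-negative cells it was 0% in both directions. By unadjusted p under 0.05 the members passed 2 times in Il1rl1+ cells (*Klrb1f* and *Klrk1*, against 3.43% of all genes), 0 times in Zbtb16+ (2.09%), Icos+ Zbtb16- (3.02%) and Eomes+ cells (7.76%), and 1 time in gate-negative cells (*Klrg1*, 4.19%). The medians of the members were 2.17, 0.15, 0.50, 0.26 and 0.27 (log2) in this order of gates, beside -0.66, -0.07, -0.21, -0.11 and -0.19 for all genes. DESeq2 called 1 member in Il1rl1+ cells, *Klrc2*, which had 0 reads in the G3SEKO sum and under 1 CPM in WT (beside 1.42% of all genes), 1 in gate-negative cells, *Klrg1* (0.456%), and 0 in Zbtb16+ (0.0432%), Icos+ Zbtb16- (0.125%) and Eomes+ cells (2.84%).

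The difference of the genotype effect between Il1rl1+ and Zbtb16+ cells was tested as an interaction, in which the G3SEKO Il1rl1+ arm is again 1 sum with its spread taken from the other groups and 77.7% of its *Klrk1* reads in 1 cell. EdgeR called 0 of 9 members and 0% of all genes in either direction, and *Klrk1* passed an unadjusted p under 0.05 with 7.03 ± 2.98 (log2, SE; adjusted p 1 by edgeR's quasi-likelihood test), as did 2.81% of all genes. DESeq2 called 1 member, again *Klrc2*, beside 0.791% of all genes. The members' median of this difference was 2.02, beside -0.58 for all genes.

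The genes most like each member were found by Pearson's r of log2(CPM + 10) over the 12 WT sums, which share libraries and differ in depth. *Klrb1c* was most like *Klre1* (0.946), another killer lectin-like gene, *Klrc1* (0.943) and *Samd3* (0.923). *Klrc1* was most like *Xcl1* (0.975), the gene of a chemokine of NK cells, then *Fcgr3* (0.953) and *Klre1* (0.946), and *Klrc2* was most like *Samd3* (0.969), *Colgalt1* (0.951) and *Klre1* (0.947). *Klrk1* was most like *Cxcr3* (0.960), the gene of a chemokine receptor, *Hhex* (0.929) and *Bin2* (0.920). *Ncr1* was most like *Tbx21* (0.925), the gene of T-bet, *Gm44511* (0.919) and *Klrb1c* (0.890). The values describe 12 sums, several of them of few cells.

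For the remaining members the likest genes were of other kinds. *Klrg1* was most like *Gm12503* (0.974), *Plekhh1* (0.970) and *Acvr2a* (0.968), an activin receptor gene. *Klrb1f* was most like *Scpep1* (0.945), *Rogdi* (0.916) and *Ly86* (0.903), and *Klrb1b* was most like *H2-DMb1* (0.903), *Olfr510* (0.886) and *Tspoap1* (0.883). *Klrd1* was most like *Map2k7* (0.879), *Dyrk2* (0.874) and *Gm4799* (0.874).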

How the data were processed

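Reads of mRNA and hashtag libraries of αLPs were analysed in 2 experiments. The authors aligned reads to GRCm38 with Bowtie 2, after adapter removal with Cutadapt, and deposited tables of raw read counts (genes by cells, without molecule tags or scaling), with a hashtag call in each cell's name. Their processing notes also name Seurat 4. Gene positions come from GENCODE on the same build, which is another annotation than theirs.

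The study's limits were applied, a least depth of 83012 reads in experiment 1 and 6733 in experiment 2 and no more than 10% of reads from mitochondria. The study also left out cells low in *Id2*, and the level used for this, ln(1 + reads per 10000) of at least 1, was chosen here. No doublet caller was run, and the 1 and 99 cells without a single hashtag call past the limits were left out. Reads were summed per experiment, genotype and gate, and sums of at least 5 cells were fitted with edgeR 4.0.16 in R 4.3.3 (TMM, a filter on low counts, quasi-likelihood test, Benjamini-Hochberg adjustment over 20850 genes, experiment as a block, adjusted p under 0.05 called). Each experiment holds cells of WT and G3SEKO mice, so the experiment pairs the sums, as the methods of the study describe. DESeq2 1.42.0 was an alternative. Wilcoxon tests across cells, as the study used, were left out, since cells of a sample share their source. P-values rest on the spread between sums of a group from the 2 experiments, pooled over 12 groups with 9 residual degrees of freedom. Gates of the same genotype and experiment entered as independent sums, so their shared source was not modelled beyond the block. For G3SEKO Il1rl1+ cells, a single sum, the spread is that of the other groups.

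The 9 members and all lists were chosen with earlier results of these data known. All 9 members are named, list genes were named when called (at most 4 per list and comparison), and *Tyrobp*, *Hcst*, *Ccr6*, *Zbtb16* and *Gata3* were named beside them after their values were seen. On simulated counts the test recovered 0 to 4 of 100 genes changed 4-fold and 25 to 42 of 100 changed 64-fold, depending on the contrast, with 0 to 2 false calls.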

Additional observations from a re-analysis of the deposited data

Results flagged for a closer look

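*Klrb1b* had opposite orders of the genotypes in 2 gates in both experiments. Eomes+ cells had 29.6 and 176 CPM in the WT samples and 0.307 and 21 CPM in the G3SEKO samples of the same experiments. Icos+ Zbtb16- cells had 175 and 26.8 CPM in WT and 423 and 154 CPM in G3SEKO. The mean log2 ratio of G3SEKO to WT, on CPM + 10, was higher by 3.96 in Icos+ Zbtb16- than in Eomes+ cells. The 423 CPM rest on 7 cells, 2 of them at the level, and with hashtags as the unit the fitted Icos+ Zbtb16- value was -0.64 (log2, edgeR), in the other direction. The difference itself was not tested, the Eomes+ values of G3SEKO cells rest on 5 and 42 cells, and part of the *Klrb1b* sequence is shared with *Gm44511*.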

How the results depend on the processing

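The 3 contrasts (Eomes+ and gate-negative genotypes, Icos+ Zbtb16- against Il1rl1+ in WT) were added after seeing the data. Members called were 2 with thinned cells and with only the sums compared and 1 with DESeq2 in Zbtb16+ cells, and 6, 9 and 6 in Eomes+ cells. They were 6, 1 and 6, and 6 with hashtags as the unit, in Cd3e+ cells, 2 with thinned cells in Icos+ Zbtb16- cells, 1 with thinned cells and with DESeq2 for gate-negative genotypes, and 1 with DESeq2 for Il1rl1+ genotypes and the interaction. Of 1049 values of members under alternatives, 109 had the other sign, of which 0 were called. Leaving out an experiment means here that only its compared sums were dropped, while its other gates stayed in the fit. In Cd3e+ cells this gave -5.01 to 8.80 for *Klrb1c*, -6.57 to 8.11 for *Klrk1*, -1.81 to 9.17 for *Klrc1* and -6.41 to 8.20 for *Klrc2*. The negative values are those without experiment 1, where 7 cells without these reads remain. The floor of these cells, 11.1 CPM, lies above the Il1rl1+ values, so no direction could be measured there. With hashtags as the unit the genotype value of *Klrb1b* in Icos+ Zbtb16- cells was -0.64. The cause was not tested. All 18 shares of cells with a read moved outside their intervals once cells were thinned.

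Genes called overall moved more. With DESeq2 they were 223 (Zbtb16+), 542 (Eomes+), 2783 (Cd3e+), 20 (Icos+ Zbtb16-), 296, 9, 26, 592 and 95 (genotypes in Il1rl1+, Zbtb16+, Icos+ Zbtb16-, Eomes+ and gate-negative cells) and 165 (interaction), against 5, 8, 448, 0, 2, 0, 0, 0, 0 and 0 with edgeR. With thinned cells they were 267, 238, 21, 66, 9, 1, 34 and 20 (Zbtb16+, Eomes+, Icos+ Zbtb16-, then genotypes in Il1rl1+, Icos+ Zbtb16-, Eomes+ and gate-negative cells, and the interaction), and with only the sums compared 448, 456, 50 and 8 (Zbtb16+, Eomes+, Cd3e+, gate-negative genotypes). With hashtags as the unit they were 84, 40, 1246, 2, 1 and 10 (Zbtb16+, Eomes+, Cd3e+, Icos+ Zbtb16-, Il1rl1+ and gate-negative genotypes), and with at least 10 cells per sum 31, 48, 1066 and 0 (Zbtb16+, Eomes+, Cd3e+, Il1rl1+ genotypes). Gates at any read gave 0 in Zbtb16+, Eomes+ and Cd3e+ cells and Il1rl1+ genotypes, no *Id2* limit gave 84 in Cd3e+ cells and 0 for Il1rl1+ genotypes, and no filter and the own hashtag call gave 0 for Il1rl1+ genotypes. Leaving out either experiment gave 0 to 1 (Zbtb16+), 0 (Eomes+), 129 to 1052 (Cd3e+), 0 (Il1rl1+ genotypes) and 0 to 4 (gate-negative genotypes), where the lone sample is assumed to vary like the other groups. Without the replicate block by experiment, 0 of 9 members were called in every comparison, and 3 genes (Eomes+) and 1 gene (Il1rl1+ genotypes) in all. Without experiment 2, and with only the sums compared, the Il1rl1+ genotypes could not be fitted, nor the interaction without experiment 2. The 1 to 50 cells of several G3SEKO sums limit what depth can show.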
